A study of Mus musculus with 4 samples.

Results

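The genes described here are 10 histone genes whose transcripts were lower in kidney medulla labelled as carrying an Actr3 deletion in the tubule epithelium. They are the linker histone genes H1f2, H1f3, H1f4 and H1f5, the H2A gene H2ac6, the H2B genes H2bc4 and H2bc21, the H3 gene H3c14 and the H4 genes H4c9 and H4c12. They were chosen from these same libraries by their difference between the groups, so that difference is described with no test. Found by Entrez gene ID, they are 10 of the 27179 genes in the table and 10 of its 62 canonical histone genes, meaning the numbered genes of the histone clusters.

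The study profiled RNA of the kidney medulla by mRNA sequencing in 4 mice at postnatal day 14. There were 2 libraries labelled Actr3 WT (wild type) and 2 labelled KO (Actr3-fl/fl*Cdh16-Cre). Actr3 encodes a core subunit of the Arp2/3 complex, which starts branched actin filaments. The Cdh16 promoter drives Cre in kidney tubule epithelium and not in the other cells of the medulla. The strain was C57BL/6 mixed in both groups, and the labels do not say whether the controls carried floxed alleles or Cre.

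Replication-dependent histone genes supply the proteins that package new DNA, and their transcripts accumulate in S phase and are degraded when replication ends. Their mRNAs are unusual in ending at a conserved stem-loop rather than in a poly(A) tail. SLBP binds the stem-loop, and the U7 snRNP directs the cut downstream of it. Some of these genes also give longer, polyadenylated transcripts, mainly in cells that have left the cycle, and poly(A) capture takes up those forms and little of the stem-loop form. How RNA was captured for these libraries is not given in the sources used here.

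The stem-loop is shown first because it bears on which form of a histone transcript a library can hold. The letters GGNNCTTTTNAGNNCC, a 6-base stem on each side of a 4-base loop, were searched on the transcript strand of the GENCODE M21 transcripts on GRCm38. Of the 10 genes, 6 had a match, given here 5′ to 3′ with the loop in capitals.
H1f2, H1f3, H1f4, H2ac6 and H3c14: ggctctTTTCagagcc
H4c9: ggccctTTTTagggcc
The sites lie in the 3′ untranslated region, 27 to 43 bases past the last amino acid codon, a distance that includes the stop codon. They are at chr13:23739512-23739527 on the plus strand for H1f2, chr13:23555787-23555802 (plus) for H1f3 and chr13:23621782-23621797 (minus) for H1f4. They are at chr13:23683477-23683492 (minus) for H2ac6, chr3:96247327-96247342 (plus) for H3c14 and chr13:22040966-22040981 (minus) for H4c9. So 5 of the 6 shared 1 stem-loop sequence, and H4c9 differed from them in both the stem and the loop. No match was found for H2bc4 and H2bc21, whose transcripts run 742 and 2192 bases past the stop codon. The H2bc4 transcript searched has 1156 bases, while its RefSeq gene spans chr13:23684199-23692480. A stem-loop in the bases left out of that transcript could not have been found. For H1f5 and H4c12 the annotated transcripts end with the coding sequence, so a stem-loop after it could not have been found.

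In RefSeq the 6 genes stop 4 to 6 bases past the stem-loop, as the replication-dependent form does. GENCODE gives each of them a transcript that runs on, by 840 bases for H1f2, 4884 for H1f3, 1153 for H1f4, 2010 for H2ac6, 1167 for H3c14 and 330 for H4c9. All 6 therefore passed 100 bases, which is 6 of the 10 genes. Of the 52 other canonical histone genes, 34 had a stem-loop match, and 12 of these 34 passed 100 bases. Another 11 of the 52 have no annotated bases after the coding sequence. Among the 5 others with enough reads to be tested, 4 passed 100 bases, so this trait is not particular to the 10. The longest annotated transcript ended with a poly(A) signal (AATAAA or ATTAAA in its last 40 bases) for 4 of the 10 genes and for 8 of the 52 others. These are properties of the annotation; which form the counted reads came from was not tested.

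The promoters of H1f3, H1f4 and H2ac6 are shown as examples: an H1 pair with both the CCAAT and H1 boxes, and the window that H2ac6 shares with H2bc4 and that holds the octamer. Each window runs from 250 bases before to 50 after the RefSeq start on GRCm38.p6, and capitals mark 4 motifs found on either strand: the TATA motif with the letters TATAAA, the CCAAT box, the octamer with the letters ATTTGCAT and the H1 box with the letters AAACACA.
H1f3, chr13:23554782-23555081, plus strand: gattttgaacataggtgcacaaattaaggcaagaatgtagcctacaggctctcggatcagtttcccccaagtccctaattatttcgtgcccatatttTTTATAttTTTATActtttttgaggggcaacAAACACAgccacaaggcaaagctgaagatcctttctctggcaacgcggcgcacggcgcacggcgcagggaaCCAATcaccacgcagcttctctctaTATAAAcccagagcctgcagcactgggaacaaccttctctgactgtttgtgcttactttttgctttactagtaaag
H1f4, chr13:23622509-23622808, minus strand: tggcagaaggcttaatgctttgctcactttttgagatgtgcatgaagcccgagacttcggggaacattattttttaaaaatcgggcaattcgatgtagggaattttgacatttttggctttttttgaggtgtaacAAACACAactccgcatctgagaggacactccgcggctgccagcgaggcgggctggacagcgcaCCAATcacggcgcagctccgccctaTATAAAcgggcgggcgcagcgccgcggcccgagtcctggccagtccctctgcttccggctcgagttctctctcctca
H2ac6, chr13:23683910-23684209, minus strand: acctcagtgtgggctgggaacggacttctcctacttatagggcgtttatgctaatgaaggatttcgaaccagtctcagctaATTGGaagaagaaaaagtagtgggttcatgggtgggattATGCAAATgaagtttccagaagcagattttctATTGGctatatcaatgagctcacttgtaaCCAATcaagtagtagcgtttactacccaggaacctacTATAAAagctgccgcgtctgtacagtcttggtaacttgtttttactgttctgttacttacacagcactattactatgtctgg
The H2ac6 window also covers the RefSeq start of the divergent neighbour H2bc4, at position 23684199 of chromosome 13. RefSeq windows were found for 8 of the 10 genes, without H2bc4 and H2bc21. The H1 box lay in all 4 linker histone windows and in none of the 4 core histone windows. It was not in the window of H1f1, the remaining canonical linker gene. Its share over all genes was 7.18% of 32851 windows. TATAAA was in 6 of the 8 windows (13.6% of all windows), CCAAT in 6 (37.4%) and the octamer in 1, that of H2ac6 (1.74%). In 49 windows of other canonical histone genes the shares were 57.1% for TATAAA, 87.8% for CCAAT, 22.4% for the octamer and 8.16% for the H1 box. None of these 4 letter strings contains another. A match is a description of letters, not a site that was shown to be used.

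The libraries held 36482238 to 40784436 reads assigned to genes. Values below are read counts that the authors divided by 1 size factor per library, called normalized read counts, in the order WT 1, WT 2, KO 1 and KO 2. Actr3 itself was at 8065, 7275, 12587 and 12480, higher in the KO-labelled libraries by 0.71 log2 units (SE 0.082, limma adjusted p = 0.000494). A count over the whole gene cannot show whether an exon is lost, so it does not check the labels, and every direction below rests on them. Of 16253 genes tested with limma on log2(value + 1), 51.2% were called at an adjusted p under 0.05, with 26.3% higher and 24.9% lower in KO, and the median log2 difference of all of them was 0.00.

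All 10 histone genes had both KO values below both WT values, which also held for 38.7% of all genes tested. Each was at least 2-fold lower in KO, as were 10.5% of all genes. Because the genes were chosen on this contrast, nothing is read from these counts. All 10 passed the minimum mean of 10 used for testing, but H1f4, H1f5 and H4c12 (3 of the 10) had KO means under 10 and passed through their WT values. The fold differences of the 10 ran from 2.51 (H2bc21) to 97.3 (H1f3), with a median of 10.8 and a median log2 difference of -3.39. Summed over the 10 genes, the normalized read counts were 15769 and 15846 in WT and 2567 and 2558 in KO, 6.17-fold lower in KO. The 2 libraries of each group lay close together in this sum.

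**Figure D1:**
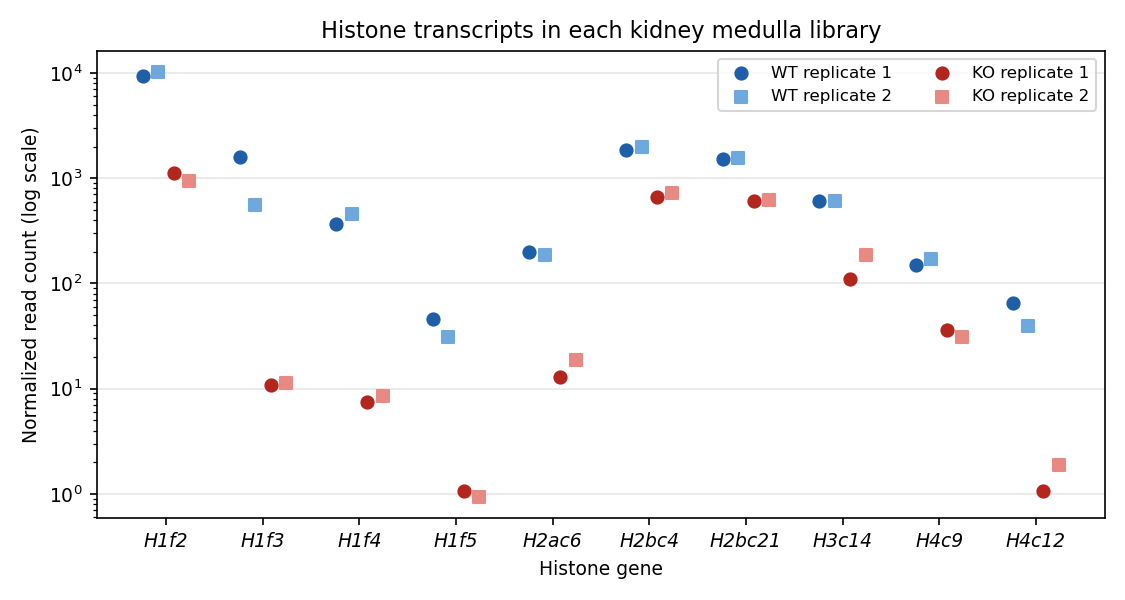
Normalized read count (log scale) of each of the 10 histone genes in each library, WT in blue and KO in red, with circles for replicate 1 and squares for replicate 2. Every KO point lies below both WT points of its gene, with the gap narrowest for H2bc21 (2.51-fold) and widest for H1f3 (97.3-fold).

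The linker histones bind the DNA between nucleosomes and compact chromatin. H1f2 (Entrez 50708, chr13:23738807-23739531) gave 9378, 10218, 1122 and 945 normalized reads. The KO values were close to each other and far below both WT values (9798 ± 594 against 1033 ± 125, mean ± SD, n = 2 each), a 9.48-fold difference. H1f2 alone made up 59.5% and 64.5% of the summed reads of the 10 genes in WT, and 43.7% and 36.9% in KO. Without it, the sum of the other 9 was 6391, 5628, 1445 and 1613, still separate between the groups.

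H1f3 (Entrez 14957, chr13:23555032-23555807) gave 1584, 560, 10.7 and 11.3. The WT libraries differed from each other by 2.83-fold, while the KO libraries were alike, and the groups did not overlap. Its KO values rest on 10 and 12 reads. The mean was 97.3-fold lower in KO. Library WT 1 carried much of that size, since the fold was 50.8 without it and 144 without WT 2.

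H1f4 (Entrez 50709, chr13:23621777-23622558) gave 366, 460, 7.51 and 8.48, which is 51.7-fold lower in KO (413 ± 66.3 against 7.99 ± 0.687, n = 2 each). Both KO values were a small share of either WT value, and they rest on 7 and 9 reads. H1f5 (Entrez 56702, chr13:21779832-21780625) had few reads in every library, at 46.3, 30.8, 1.07 and 0.942. Its KO values rest on 1 read per library: 78 reads in WT against 2 in KO, a normalized ratio of 38.5 with a 95% counting interval of 10.3 to 323. The size of the H1f5 difference is therefore known far less well than that of H1f2.

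H2A and H2B form dimers that join the H3 and H4 tetramer in the nucleosome core. H2ac6 (Entrez 319164, chr13:23683473-23683959) gave 197, 186, 12.9 and 18.8, 12.1-fold lower in KO. Its WT values were close, and its KO values differed from each other more but stayed far below. The H2B gene beside it, H2bc4 (Entrez 68024, chr13:23684199-23692480), gave 1841, 2000, 656 and 731, 2.77-fold lower (1920 ± 112 against 694 ± 52.8, n = 2 each). These neighbours, whose starts lie in 1 promoter window, thus differed in fold, though no test of that difference was made.

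H2bc21 (Entrez 319190, chr3:96221072-96223738) encodes H2B from the smaller histone cluster on chromosome 3. It gave 1530, 1570, 609 and 625, 2.51-fold lower in KO (1550 ± 28.2 against 617 ± 10.9, n = 2 each). Both groups were tight, and this was the smallest fold of the 10. The H2B genes H2bc4 and H2bc21 were the pair with the smallest differences. They are also the genes whose searched transcripts extend past the coding sequence with no stem-loop match, with the limit given above for H2bc4. Whether transcript form has any part in the size of the fold was not tested.

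H3 and H4 form the tetramer at the centre of the nucleosome. H3c14 (Entrez 15077, chr3:96246685-96247348) gave 612, 611, 109 and 185, 4.16-fold lower in KO. The WT libraries were nearly equal, and KO 2 was 1.69-fold above KO 1. H4c9 (Entrez 319158, chr13:22040960-22041362) gave 151, 171, 36.5 and 31.1, 4.76-fold lower (161 ± 14.3 against 33.8 ± 3.80, n = 2 each). H4c12 (Entrez 319160, chr13:21750145-21750553) gave 65.0, 39.8, 1.07 and 1.88, from 106 reads in WT and 3 in KO. Its normalized ratio was 34.9, with a 95% counting interval of 11.6 to 172, so its order relative to H1f4 or H1f5 cannot be read from these counts.

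Canonical histone genes are near copies of each other, and how reads that fit several of them were counted is not given in the sources used here. Of all 50-base stretches of their GENCODE transcripts, 100% were found in no other gene for H1f5 and H2bc21, 97.7% for H1f3, 91.5% for H1f2 and 85.9% for H2ac6. The share was 71.1% for H4c9, 69.4% for H2bc4, 68.0% for H1f4, 28.5% for H4c12 and 0% for H3c14. H3c14 and H4c12 thus had the lowest shares. These shares cover the long GENCODE forms, whereas the RefSeq genes with a stem-loop match stop shortly after it. Shares over the shorter forms were not computed, and the annotation used for counting is not given. How uncertain each gene's count is therefore cannot be ranked from them. For H3c14 the genes sharing stretches include the gene models Gm20628 and Gm20634 beside other H3 genes, so its 0% need not reflect histone copies alone. The genes with the highest shares showed both the smallest fold, 2.51 for H2bc21, and the largest, 97.3 for H1f3. For the 52 other canonical genes the median share was 40.1%.

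By histone type, summing all canonical genes, the H1 genes gave 11390, 11274, 1141 and 966, 10.8-fold lower in KO. H2A genes gave 215, 214, 31.1 and 32.0 (6.79-fold), and H4 genes gave 298, 309, 53.6 and 51.8 (5.76-fold). H3 genes gave 723, 781, 124 and 199 (4.65-fold), and H2B genes gave 3596, 3768, 1290 and 1387 (2.75-fold). In each of the 5 types the groups were separate, but each sum includes genes among the 10 that were chosen on this contrast. Nothing is therefore read from that separation. The 10 genes held 96.9% to 97.2% of all canonical histone reads in each library, and 78.2% or more of the reads of H1, H2B and H3 genes. Their share was lower for H4 genes, at 72.3%, 68.2%, 70.0% and 63.6%. For H2A genes H2ac6 held 91.7% and 87.0% in WT and 41.4% and 58.8% in KO, so the H2A sum differed by less than H2ac6 itself (12.1-fold).

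The other 52 canonical genes were the same clusters' remaining members, and leaving the 10 out of them does not make them independent evidence. Of the 52, 47 had a mean under 10 and were not tested, 10 of these with no read in any library. The 47 together held 131 and 137 reads in WT and 32 and 37 in KO. Over the 42 genes with any read, the KO mean was lower for 35 and higher for 7. Of these 42, 37 had a mean under 10, and 49 of the 52 share stretches of sequence with the 10 genes described. No share over all genes was computed for this count, so nothing is read from it.

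The other 5 were tested, and all 5 were called lower (24.9% of all genes were), with a median log2 difference of -2.95. Of these, H3c15, H3c4 and H4c8 (3 of the 5) had KO means under 10 and reached the test only through their WT values, so nothing is read from the count. All 5 also share 50-base stretches with 1 or more of the 10 genes described, so reads may have been counted for either. The H2B gene H2bc8 gave 130, 75.5, 10.7 and 13.2 (log2 difference -2.96, SE 0.38, limma adjusted p = 0.000782). H2bc6 gave 70.9, 95.4, 9.65 and 11.3 (-2.86, adjusted p = 0.000623), and shares sequence with H1f4 and H2bc4. The H3 genes H3c15 and H3c4 gave 57.1, 122, 9.65 and 6.59 (-3.23, adjusted p = 0.00131) and 28.6, 18.9, 1.07 and 3.77 (-2.95, adjusted p = 0.00666). The H4 gene H4c8 gave 37.4, 51.7, 8.58 and 7.54 (-2.31, adjusted p = 0.00289).

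For all 5 genes tested both KO values lay below both WT values, as for 38.7% of all genes tested. With 3 of the 5 tested only through their WT values, nothing is read from this count either. The linker gene H1f1, too low to be tested, had 15.8, 4.97, 0 and 0. That is 21 reads against 0, at least 6.90-fold lower in KO when a floor of 3 reads over the group is set. The bound was 3.30 without WT 1 and 10.5 without WT 2.

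**Figure D2:**
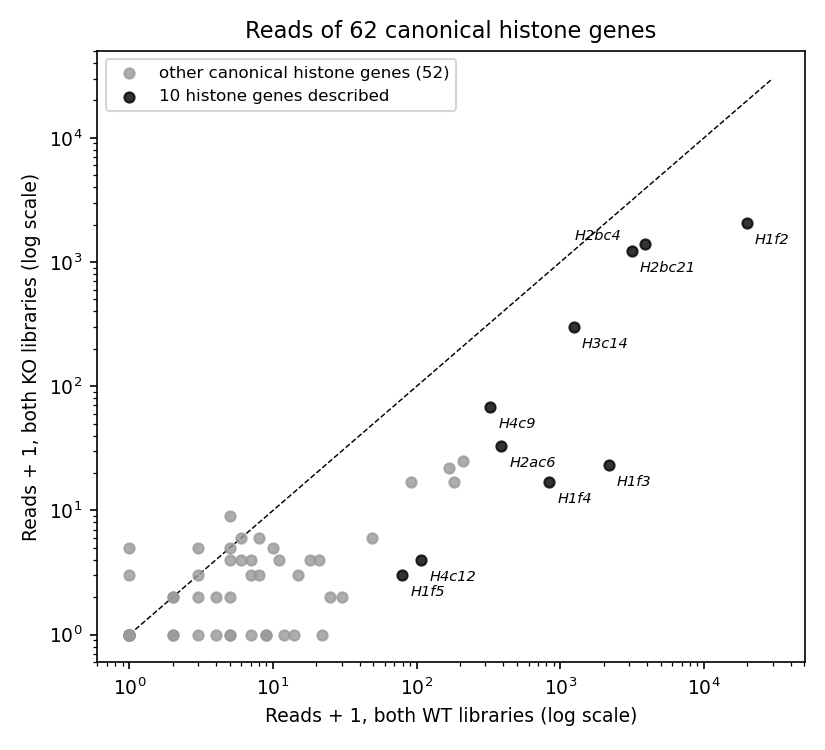
Reads + 1 summed over both WT libraries (x axis, log scale) and over both KO libraries (y axis, log scale) for the 62 canonical histone genes; each point is a gene, black for the 10 genes described, and the dashed line marks equal reads. All 10 lie below the line, at 78 WT reads or more, while most of the 52 others lie near the origin.

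Histone genes transcribed also outside S phase, most with mRNAs that carry only a poly(A) tail, were set beside them. Of 11 tested, 3 rose (26.3% of all genes did), 1 fell (24.9%) and 7 did not pass the test, with a median log2 difference of 0.24. The gene that fell was H1f0, the linker histone of differentiated cells, at 21717, 25794, 9953 and 8809 (log2 difference -1.34, SE 0.11, limma adjusted p = 0.00012). So the linker gene that is not tied to replication was also lower in KO, by 2.53-fold. H1f10, the other such linker gene, was at 487, 613, 681 and 698 (0.34, adjusted p = 0.0917).

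Macroh2a2, a large H2A variant of silenced chromatin, was at 551, 592, 1276 and 1436, 2.37-fold higher in KO (log2 1.24, SE 0.11, limma adjusted p = 0.000183). Its relative Macroh2a1 rose by 1.48-fold (log2 0.56, adjusted p = 0.00139). Cenpa, the H3 variant of centromeres, rose by 0.48 log2 units (adjusted p = 0.0275). Its call did not hold without WT 1 (0.108), WT 2 (0.0674) or KO 2 (0.170).

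H2ax, the H2A variant that marks DNA breaks, was at 1220, 1318, 1351 and 1320 (log2 0.07, limma adjusted p = 0.536). It is of interest here because its transcripts exist in both a stem-loop and a polyadenylated form. H2az1 and H2az2, which encode H2A.Z, had log2 differences of 0.24 (adjusted p = 0.111) and 0.12 (0.317). H2aj had 0.29 (0.219) and H3f3a, which encodes H3.3, had -0.19 (0.125). H3f3b was at only 20.7, 19.9, 31.1 and 10.4 (-0.16, 0.830).

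The transcripts were set beside cell cycle genes because replication-dependent histone mRNA accompanies DNA synthesis. Of 38 genes of S phase, 25 rose (26.3% of all genes rose), 1 fell and 12 did not pass the test, with a median log2 difference of 0.52. Their summed normalized reads were 29330 and 29877 in WT and 38755 and 38573 in KO. The count of 25 was 15 without WT 1. While the 10 histone transcripts were lower in KO, most S phase genes were thus higher in the same libraries.

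Uhrf1, which carries DNA methylation through replication, had the largest rise, with 670, 673, 1701 and 1598 (log2 1.29, SE 0.098, limma adjusted p = 8.27e-05). Cdca7 was at 366, 348, 799 and 711 (1.08, adjusted p = 0.000604), and Gins1, a subunit of the replicative helicase complex, at 130, 92.4, 240 and 210 (1.03, adjusted p = 0.0093). Each had both KO values above both WT values. Pcna, the sliding clamp of the replication fork, was at 2139, 2157, 2765 and 2670 (0.34, adjusted p = 0.0104). Its call did not hold without KO 1 (0.0718).

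The helicase subunit gene Mcm6 was at 2318, 2222, 2350 and 2350 (log2 0.05, limma adjusted p = 0.621). The ribonucleotide reductase gene Rrm1 was at 2559, 2742, 2630 and 2906 (0.06, adjusted p = 0.591). Its partner Rrm2, the subunit made in S phase, was at 1698, 1810, 1108 and 1510 (-0.44, adjusted p = 0.0440). That call was lost without WT 1 (0.104), WT 2 (0.164) or KO 1 (0.229).

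**Figure D3:**
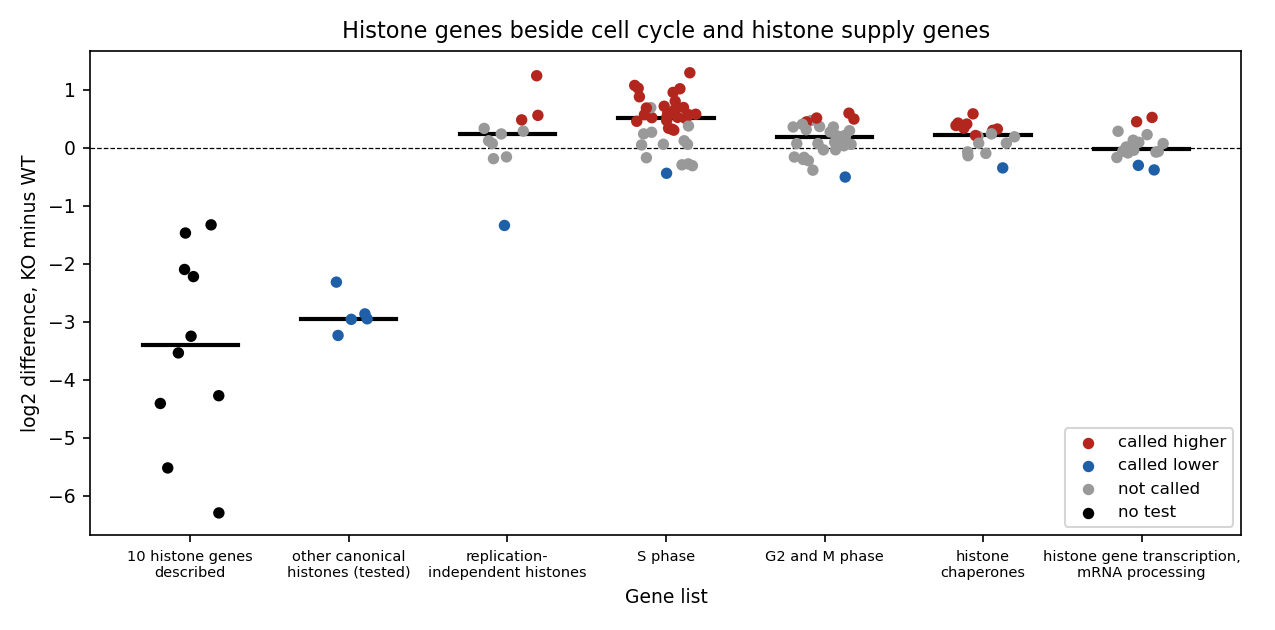
The log2 difference of KO minus WT (y axis) for each tested gene of 7 gene lists (x axis); points are genes coloured by their limma call, black for the 10 histone genes, which have no test, and bars are list medians. The histone genes lie at a median of -3.39 and the S phase genes at 0.52.

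Of 30 genes of G2 and M phase, 4 rose (26.3% of all genes did), 1 fell (24.9%) and 25 did not pass the test, with a median log2 difference of 0.19. The proliferation marker Mki67 was at 3136, 2719, 2683 and 3573 (0.08, limma adjusted p = 0.650), and its groups overlapped. Top2a, a topoisomerase of dividing cells, was at 2914, 2373, 3054 and 4335 (0.47, adjusted p = 0.0585). The kinase gene Cdk1 rose from 809 and 840 to 1079 and 1254 (0.50, adjusted p = 0.00997).

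Ccna2, the cyclin A gene, had a log2 difference of 0.45 (limma adjusted p = 0.0375), Cdca8 0.51 (0.0272) and the kinesin gene Kif2c 0.60 (0.0284). Kif23, a kinesin of cytokinesis, fell by 0.50 on the log2 scale (adjusted p = 0.0102). The 4 rises were 1 without WT 1, 1 without WT 2, 0 without KO 2 and 7 without KO 1, and the fall of Kif23 was lost without WT 1 or KO 1. The G2 and M counts therefore depend on single libraries.

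Of 16 genes of entry into S phase, 4 rose, 5 fell and 7 did not pass the test, near the 26.3% and 24.9% of all genes, with a median log2 difference of -0.07. Ccnd1, the cyclin D1 gene, was at 19321, 22475, 9798 and 9385 (-1.12, limma adjusted p = 0.000135). Cdkn1c, a CDK inhibitor gene, was at 20122, 25100, 2678 and 5964 (-2.49, adjusted p = 0.000893), and Rb1, the retinoblastoma gene, was also lower (-0.73, adjusted p = 0.000716). The G1 kinase gene Cdk4 was at 4846, 4971, 9099 and 8561 (0.85, adjusted p = 0.000164).

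Among inhibitors that were higher, Cdkn2b was at 265, 296, 928 and 680 (2.87-fold higher, limma adjusted p = 0.000558). Cdkn2a was at 1.97, 0.994, 37.5 and 22.6 (adjusted p = 0.00177), with only 3 reads in WT. Cdkn1a was at 1743, 3058, 4440 and 3975 (0.86, adjusted p = 0.0193), and its call did not hold without KO 1 (0.0505), under DESeq2 (0.0849) or without the variance trend (0.0939).

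Of 18 genes that transcribe and process histone mRNA, 2 rose, 2 fell and 14 did not pass the test, where 51.2% of all genes were called, with a median log2 difference of -0.01. Slbp, the stem-loop binding protein gene, was at 2088, 2100, 1978 and 2095 (-0.04, limma adjusted p = 0.703). Npat, the coactivator of histone genes, was at 2248, 1927, 2039 and 2171 (0.02, adjusted p = 0.910), and Casp8ap2 at 1758, 1472, 1472 and 1613 (-0.06, adjusted p = 0.673). For all 3 genes the groups overlapped.

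The U7 snRNP subunit genes Lsm11 and Lsm10 had log2 differences of 0.52 (limma adjusted p = 0.0183) and 0.45 (0.0382). Hinfp, a transcription factor gene of H4 promoters, had -0.38 (0.0411), and Srrt, which acts with the cap-binding complex, -0.30 (0.0155). Sympk, a scaffold of the cleavage complex, and Upf1, a helicase of histone mRNA decay, had 0.10 (0.426) and -0.17 (0.0974). Each of the 4 calls was lost when some single library was left out: Hinfp whichever of the 4 it was, Srrt without WT 1, KO 1 or KO 2, Lsm10 without WT 1, KO 1 or KO 2, and Lsm11 without WT 2 or KO 1.

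Of 18 histone chaperone genes, whose products carry new histones to DNA, 8 rose (26.3% of all genes did), 1 fell (24.9%) and 9 did not pass the test, with a median log2 difference of 0.23. Nap1l1, a carrier of H2A and H2B, was at 5587, 5139, 7951 and 8142 (0.59, SE 0.079, limma adjusted p = 0.000951). Nasp, a carrier of H3 and H4, had 0.43 (0.012) and Set 0.41 (0.00508). Of the most abundant, Rbbp7 had 0.32 (0.00836), Rbbp4 0.21 (0.0484) and Atrx -0.35 (0.0353).

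The 8 chaperone rises were 4 without KO 1 and 4 without KO 2. The call of Atrx was lost without WT 1, KO 1 or KO 2, that of Rbbp4 whichever library was left out, and those of Nasp and Rbbp7 without KO 2. Most chaperone genes were higher in KO in the libraries where the histone transcripts were lower: 14 of 18 had both KO values above both WT values, as did 39.8% of all genes.

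RNA genes whose product has no poly(A) tail were looked at for what the libraries captured. Of 18 listed, 15 were in the table, 4 of them at 0 in all libraries, and the 15 summed to 77.8, 77.5, 77.2 and 49.0 normalized reads. Rn7sk was at 32.5, 28.8, 29.0 and 23.6 (limma adjusted p = 0.615), and Rnu7, the U7 RNA itself, at 20.7, 24.8, 26.8 and 15.1 (adjusted p = 0.769). These were the 2 with a mean of at least 10, and both groups overlapped for each. What part capture had in the histone values was not tested.

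Markers of several cell types moved with the histone transcripts, read against 24.9% of all genes lower and 26.3% higher. Summed normalized reads of the 6 endothelial markers were 67736 and 68956 in WT and 21744 and 20695 in KO, and all 6 fell. All 6 intercalated cell markers fell, from 17798 and 18668 to 3539 and 3299, as did 7 of 8 principal cell markers, from 64391 and 77351 to 22509 and 17591. For the thick ascending limb 4 of 6 fell and 1 rose, from 441895 and 451996 to 255495 and 177105. These values also show the medulla's tubule types in all 4 libraries.

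The other lists also differed. Of the thin limb markers 4 of 5 fell, of the proximal tubule 5 of 6, and of the urothelium 5 of 5, with no rise. Of 4 erythroid markers tested, 3 fell and 1 rose, and the sum went from 3043 and 2722 to 892 and 659. All 6 macrophage markers rose, from 6809 and 6147 to 24152 and 25110. Of 4 lymphocyte markers tested and 5 fibroblast and pericyte markers, 1 rose and 1 fell in each. The lymphocyte sum was 143, 129, 70.8 and 101, and the fibroblast and pericyte sum went from 52776 and 57956 to 118738 and 126207. The 5 fibroblast and pericyte markers had log2 differences of -1.38 to 2.59 with a median of 0.14, so their sum does not stand for the list. In bulk tissue, fewer cells of a type and less RNA per cell cannot be told apart, and the part of cell composition in the histone values was not tested.

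The genes whose profile over the 4 libraries lay nearest to the median profile of the 10 were Aspn, Kcne4, Atp2a3, Prdm16os and Tmem100. Among 13468 genes with a mean of at least 50, their distances were 0.12, 0.20, 0.22, 0.26 and 0.36 on the log2 scale, each profile centred on its WT mean. Aspn was at 7098, 6907, 600 and 660 normalized reads. The likeness rests on 4 libraries in 2 groups.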

How the data were processed

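Kidney medulla of 2 KO and 2 WT animals gave the total RNA, per the labels' protocols, at postnatal day 14, and groups and replicate numbers come from the sample titles. The deposited table gives 1 signal value per gene and library: read counts that the authors divided by 1 size factor per library, as read from the values, 100% of which were whole within 0.001 after division by each library's step (0.942 to 1.07). The submitters' processing notes name the builds mm10 and GRCm38 and the tools DESeq2 2.11.40.7, featureCounts 2.0.1, HISAT2 2.2.1 and fastp 0.20.1. The sources used here give neither library capture, strand setting and annotation nor the treatment of multi-mapping reads, so near-identical copies, overlapping genes and antisense partners can share reads.

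Of 27179 Entrez IDs, 25275 were matched to a symbol in the RefSeq table of GRCm38.p6. The main test was limma 3.58.1 (R 4.3.3) on log2(value + 1) with an intensity-dependent variance (trend), two-sided. It covered 16253 genes at or above a mean of 10, with Benjamini-Hochberg adjustment at 0.05 over all of them. Log2 differences are on that scale and understate changes of low genes. The fit was also run on simulated data, with the same dispersion for every gene and far fewer changed genes than were called here. That run therefore does not show how many of the calls here are false. Alternatives were pseudocounts of 0.5 and 5, minimum means of 1 and 50, TMM scaling, quantile normalization, no variance trend, a replicate block, edgeR 4.0.16 and DESeq2 1.42.0 on the recovered reads, and leaving out each library. Intervals are exact conditional binomial intervals and, like the floor of 3 reads, cover counting error only, because reads that carry no molecular identifier can be copies of 1 molecule. With 2 libraries a group, an exact permutation test of a single gene cannot reach 0.05, and p-values measure the spread between these libraries.

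The 10 genes and all lists were chosen with earlier results of these data known. Genes named are every tested member of lists of up to 12, and otherwise the 3 largest called rises, the 3 largest called falls and the 3 highest means. Slbp, Npat, Casp8ap2, H1f1, H2aw, H2bu2, H1f6 and H4f16 were named after their values were seen. Promoter windows, from RefSeq, and transcripts, from GENCODE M21, are on the files' build.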

Additional observations from a re-analysis of the deposited data

How the results depend on the processing

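The groups do not overlap for any of the 10 histone genes, which were chosen for that contrast, so the alternatives could not turn their direction and show nothing of its stability. Their median log2 difference was -2.97 with a pseudocount of 5 and -2.73 with a minimum mean of 50, which leaves 8 of them, and -3.46 to -3.32 when a library was left out. Other canonical histones that fell numbered 12 of 31 tested at a minimum mean of 1, where 4071 of all 19018 genes tested fell. At a minimum mean of 50 only 1 was tested, and it fell, beside 3731 of all 14226 genes tested. Nothing is read from these counts. Without the variance trend, counts were 1 rise for G2 and M genes, 0 falls for S phase genes, 4 rises and 0 falls for chaperones, and 0 rises and 1 fall for histone processing genes. S phase falls were 0 at a minimum mean of 1. Under quantile normalization, chaperone falls were 0 and processing rises 1, and under DESeq2 processing falls were 1. Same-numbered libraries did not deviate together (correlation -0.056), so the numbers were not taken to pair samples; with the replicate number as a block, 3810 genes rose and 3619 fell, and processing genes gave 1 rise and 1 fall. Leaving out a library gave 15 to 21 rises and 0 to 2 falls for S phase genes, 0 to 7 and 0 to 3 for G2 and M genes, 4 to 6 and 0 to 1 for chaperones, and 0 to 2 and 0 to 1 for processing genes. Among the genes named, calls lost without the variance trend were those of Cenpa, Rrm2, Ccna2, Cdca8, Kif2c, Srrt, Lsm11, Lsm10, Nasp, Atrx, Rbbp4 and Cdkn1a (limma adjusted p 0.053 to 0.129). Those lost under other settings were Rrm2 and Rbbp4 (minimum mean 1), Lsm10 and Atrx (quantile), Hinfp and Cdkn1a (DESeq2), Rbbp4 (edgeR), and Lsm10, Hinfp and Rbbp4 (block). Beyond what their construction shows, the cause was not tested. The main limits are 2 libraries a group, few KO reads for H1f3, single-digit KO reads per library for H1f4, H1f5 and H4c12, and copies that share sequence.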

Other observations

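Outside the numbered canonical genes, 2 neighbouring histone genes on chromosome 11 were looked at after their values were seen. H2aw, an H2A gene, was at 3164, 3730, 1242 and 1315 normalized reads in WT 1, WT 2, KO 1 and KO 2 (log2 difference -1.43, SE 0.10, limma adjusted p = 7.36e-05). H2bu2, an H2B gene beside it, was at 68.9, 83.5, 42.9 and 45.2 (-0.77, adjusted p = 0.0489). Both fell (24.9% of all genes did), and for both the 2 KO values lay below the 2 WT values, as for 38.7% of all genes tested. Because they were picked with their values known, nothing is read from these counts. The histone genes H1f6 and H4f16 were also looked at in this way and are not described here.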
